A study of Mus musculus with 138 samples.

Results

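The comparison was between single mouse embryos at the 2-cell stage that had received either an antibody to SMARCA5 or control IgG at the zygote stage in the TrimAway system, in the third pool of injected embryos (replicate 3). Its members were the libraries whose titles name this replicate and these antibodies and that held at least 100000 counts, 17 of the 138 libraries of the series: 7 anti-SMARCA5 and 10 IgG. An eighth anti-SMARCA5 library, well F05, held 99 counts and was left out. The embryos of all injected groups were wild type, and the libraries were made at least 24 hours after injection from polyadenylated RNA. Uninjected embryos of the same replicate gave 5 libraries, and their values are printed as a background. Other groups used here were the antibody and IgG embryos of replicate 1 (17 and 10 libraries) and the embryos titled Smarca5 +/- (28 libraries, called maternal deletion), from Smarca5-deleted mothers and wild-type males, beside embryos titled Smarca5 +/+ (22 libraries).

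SMARCA5, also called SNF2H, is the ATPase of most ISWI chromatin remodelling complexes, which slide and space nucleosomes. TRIM21 is a cytosolic E3 ubiquitin ligase that binds the constant part of antibodies and sends the antibody with its bound protein to the proteasome. TrimAway supplies antibody and TRIM21 together, so that a protein stored in the egg can be removed without changing its gene. The mouse embryo switches on its own genome mainly at the 2-cell stage, while transcripts stored by the oocyte are degraded. The comparison asks how the 2-cell transcriptome differs when SMARCA5 protein is targeted in the zygote.

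Total counts ranged from 951489 to 4009610 in the anti-SMARCA5 libraries, from 700845 to 4139661 in the IgG libraries and from 746111 to 967761 in the uninjected libraries. All 7 anti-SMARCA5 libraries came from plate column 5, whereas the IgG libraries came from column 3 and wells A04 and B04, so plate column and antibody cannot be told apart. On the first principal component of log expression (43.2% of the variance over the 22 libraries), IgG wells A04 (-94.1) and B04 (-41.2) lay among the anti-SMARCA5 libraries, which spanned -160.4 to 4.45, and anti-SMARCA5 wells D05 (4.45) and B05 (-33.2) lay nearest the other IgG libraries (-6.76 to 88.0). These 4 libraries were kept. The number of calls and most list counts are also given without A04 and B04, and without B05 or D05 alone where that moved them by over 1.5 times. Counts of genes whose groups do not overlap, family counts and overlaps with the deletion were not recomputed without them. The labels describe the replicates as technical and each as a different pool of embryos, so the p-values measure the spread between embryos of one pool per group. In whole-embryo libraries, fewer cells and less RNA per cell cannot be told apart.

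Markers of cumulus and granulosa cells and of sperm were read as a check on other cells. Of 19 cumulus and granulosa markers, 3 passed the filter on low counts; edgeR called 0 of them, 0 passed an unadjusted p of 0.05, and DESeq2 and limma each called 0. The summed level of the whole list was 57.6 to 485 CPM (counts relative to library size, scaled with edgeR's TMM) in anti-SMARCA5 and 46.0 to 299 CPM in IgG libraries, and Fshr, the receptor that defines granulosa cells, had at most 3 counts in every library. The mean log2(CPM + 1) of the 3 tested genes was highest in anti-SMARCA5 B05 (6.58) and, among IgG libraries, in A04 (5.94). The sperm list summed to 5.15 to 69.0 CPM and 2.50 to 97.5 CPM, with Prm2, Tnp2 and Akap4 among the 6 of 12 genes at or under 3 counts throughout. The 1 sperm gene that was tested, Ldhc, which encodes a germ cell lactate dehydrogenase, had medians of 6.72 and 43.5 CPM, with 6 of 7 anti-SMARCA5 libraries under the IgG median. Its log2 fold change was -1.88 (edgeR adjusted p = 0.0956, unadjusted 0.0276), and limma called it while DESeq2 did not. It was called by edgeR without A04 and B04. The part of these transcripts in the results was not tested.

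Trim21 RNA is read here as the marker of supplied Trim21, not of injection as such. It had 0 counts in all 5 uninjected libraries, but also in all 10 IgG libraries of replicate 1. Trim21 (ENSMUSG00000030966, chromosome 7, 102557922 to 102565469, GRCm38) stood at 2265, 277, 1653, 1481, 3709, 775 and 1234 CPM in anti-SMARCA5 wells A05, B05, C05, D05, E05, G05 and H05. In the IgG libraries it was 1956 CPM in B03, 1097 in F03, 910 in E03, 750 in H03 and 517 in A04, but 17.9 in D03, 14.4 in C03, 3.87 in G03 and 0 in A03 and B04. Every anti-SMARCA5 embryo therefore held Trim21 RNA above 200 CPM, whereas 5 of the 10 IgG embryos did, and the groups overlapped. The fitted log2 fold change of anti-SMARCA5 over IgG was 1.65 (standard error (SE) 1.07, adjusted p = 0.262, edgeR quasi-likelihood F test), which did not pass the threshold of 0.05. On plain CPM the means were 1446 ± 1091 (SD, n = 7) and 520 ± 629 (SD, n = 10), with an exact two-sided permutation p of 0.0319, or 0.0957 after Benjamini-Hochberg adjustment over 6 library measures. Without anti-SMARCA5 well B05 the adjusted permutation p was 0.0311.

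**Figure D1:**
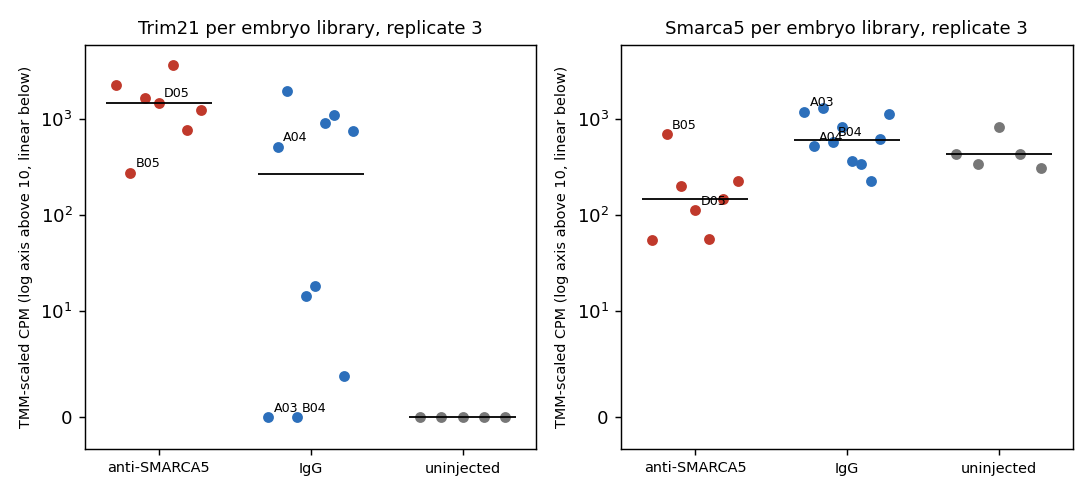
TMM-scaled CPM of Trim21 (left) and Smarca5 (right) in each replicate 3 library, with 1 point per embryo, a bar at each group's median, and a vertical axis that is logarithmic above 10 CPM and linear below. IgG embryos split between 5 with 517 to 1956 CPM of Trim21 and 5 with 0 to 17.9 CPM, and Smarca5 lies lower in 6 of the 7 anti-SMARCA5 embryos than in every IgG embryo.

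Smarca5 RNA was lower in the anti-SMARCA5 embryos, although TrimAway acts on the protein. Smarca5 (ENSMUSG00000031715, chromosome 8, 80698507 to 80739497) stood at 55.2, 691, 200, 112, 55.4, 147 and 226 CPM in wells A05, B05, C05, D05, E05, G05 and H05. The IgG libraries ranged from 226 to 1307 CPM with a median of 600, and the uninjected libraries from 312 to 819 CPM with a median of 434. Apart from B05, which lay above the IgG median, the anti-SMARCA5 libraries lay under the lowest IgG library, with H05 nearly level with it. The log2 fold change was -1.76 (SE 0.49, edgeR adjusted p = 0.0244). The exact permutation test on plain CPM, 173 ± 161 (SD, n = 7) against 711 ± 366 (SD, n = 10), gave p = 0.00303 (adjusted 0.0182). The edgeR call was lost when A05, C05 or G05 was left out, with adjusted p of 0.0504, 0.0539 and 0.0544, while the change ranged from -2.42 to -1.58 over all libraries left out in turn. Smarca1, which encodes the other ISWI ATPase, did not pass the filter: it was above 3 counts in anti-SMARCA5 well B05 (36.4 CPM) and in IgG wells A04 (56.9 CPM) and B04 (4.17 CPM).

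Across the transcriptome, 9547 genes were tested and 1576 (16.5%) were called at an adjusted p under 0.05 by edgeR, of which 665 (6.97%) were higher and 911 (9.54%) lower in anti-SMARCA5 embryos. At an unadjusted p under 0.05 there were 3489 genes. A change of at least 2-fold was reached by 579 of the higher and 903 of the lower genes, and the median log2 fold change of all tested genes was -0.08. The levels of 56 tested genes, all of them called, did not overlap between the 7 and the 10 libraries. The number of calls depended on single libraries: it was 628 without anti-SMARCA5 C05, 726 without G05, 835 without A05, 895 without H05, 924 without E05, and 902 to 945 without IgG A03, B03, C03 or H03, but 2397 without D05 and 2542 without IgG A04. It was 1188 without the 2 IgG libraries that lack Trim21. IgG C03, D03 and G03, with 22, 17 and 7 counts of Trim21, stayed in that fit, so its groups were not matched for Trim21. The part of Trim21 RNA in the calls was not tested. With both IgG A04 and B04 left out, an alternative chosen after seeing the data, 3279 genes were called, and 1547 of the 1576 genes were among them. Scaling changed the balance: 42.2% of called genes were higher with TMM, 32.8% of 1498 with DESeq2 size factors and 21.6% of 1182 with total counts, where the median of all genes moved to -0.32. Other settings moved it the other way: 48.5% of 2001 calls were higher without the filter on low counts. Without A04 and B04 it was 50.35% of 3279, so the excess of falls was gone.

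**Figure D2:**
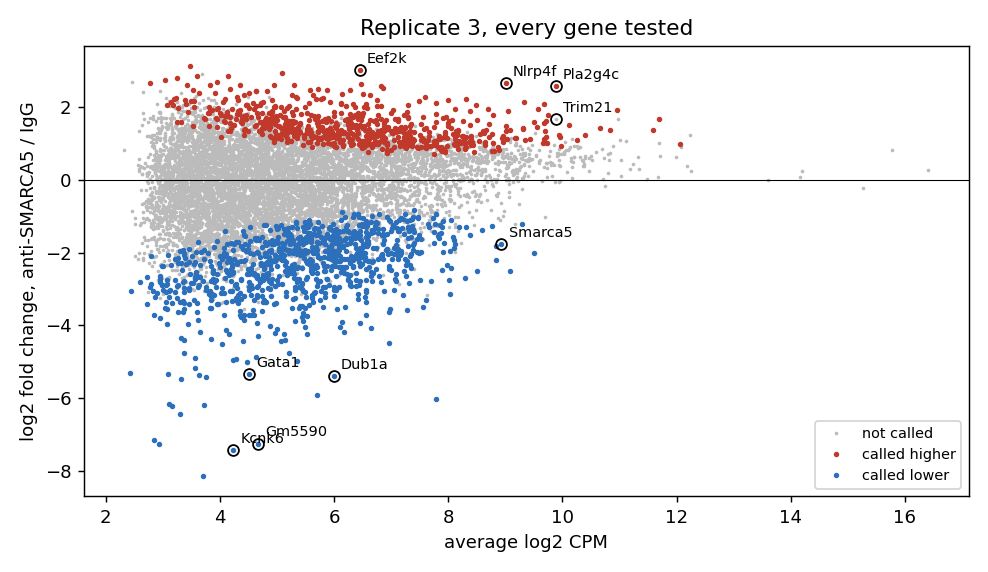
Log2 fold change of anti-SMARCA5 over IgG (vertical) against average log2 CPM (horizontal) for the 9547 tested genes of replicate 3, red for the 665 called higher and blue for the 911 called lower. Falls reach -5 and beyond on the log2 scale while the circled rises stay near 3, and Trim21 is not called.

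The 10 largest rises were taken among the 1398 called genes whose average log2 CPM was 4 or more. Eef2k, which encodes the kinase that phosphorylates elongation factor 2 (chromosome 7, 120842831 to 120907219), had a lowest, median and highest level of 48.7, 131 and 477 CPM in anti-SMARCA5 embryos and 7.55, 20.55 and 51.9 CPM in IgG embryos. In 6 of the 7 anti-SMARCA5 embryos it exceeded every IgG embryo, and the uninjected median was 19.6 CPM. Its log2 fold change was 3.00 (SE 0.48, edgeR adjusted p = 0.00422). Nlrp4f, an oocyte gene of the NLR family, was at 170, 960 and 1850 CPM against 67.3, 130 and 458 CPM. Its log2 fold change was 2.64 (SE 0.43, edgeR adjusted p = 0.00465). Pla2g4c, a cytosolic phospholipase gene active in oocytes and early embryos, had the highest average level of the 10 rises, with 564, 1848 and 3069 CPM against 59.4, 227 and 726 CPM. Zc3h6, a zinc finger gene, had the smallest p-value of all tested genes (log2 fold change 2.62, SE 0.37, adjusted p = 0.00184) and ranged from 42.2 to 381 CPM against 13.1 to 51.4 CPM. It overlaps Gm14027 on the same strand and Gm10762 on the other. The counting is not stated to use strand, so reads of overlapping genes cannot be told apart, which also touches Eef2k (Gm15774), Zfp750 (Tbcd), Ppp1r15a (Tulp2), Sp110 (AC147806.1), Gabpa (Atp5j), Tbp (Pdcd2) and Gata3 (Gm13256).

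Further rises were Ifitm6 (interferon-induced transmembrane family), Car10 (a carbonic anhydrase relative), Zfp750 (a zinc finger factor), Vezf1 (a zinc finger factor) and the lincRNA Gm11381, with log2 fold changes from 2.91 down to 2.55. Car10 lost its call without C05 or G05. Gm11381 lost it without A05, C05 or G05 and without the 2 IgG libraries that lack Trim21. In 0 of the 10 genes were the groups free of overlap. The lowest anti-SMARCA5 library was D05 or B05 in all 10, and the highest IgG library was A04, B04 or F03.

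The 10 largest falls were larger, and each of these genes had at most 3 counts in 5 to 7 of the 7 anti-SMARCA5 libraries. The filter on low counts asks for a level in as many libraries as the smaller group holds. A gene seen in IgG embryos alone could pass it in 7 of 10, but one seen in anti-SMARCA5 embryos alone needed all 7. The sizes of falls and rises are therefore not compared on equal terms. Kcnk6, a two-pore potassium channel gene (chromosome 7, 29221928 to 29232522), had 1 count over the 7 anti-SMARCA5 libraries and 541 over the 10 IgG libraries, where it ranged from 0 to 101 CPM with a median of 28.2. The ratio of IgG to anti-SMARCA5 was 296.7 with an exact 95% interval of 53.04 to 11740 that covers counting error only. Gm5590, a transcribed processed pseudogene (chromosome 7, 39445830 to 39446174), had 2 counts against 786 (IgG median 47.6 CPM, uninjected median 15.2 CPM), a ratio of 215.6 (95% interval 59.5 to 1783). IgG A04, the lowest of its group, was itself at no more than 3 counts. The reads of a pseudogene may come from its parent gene.

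Gata1, the transcription factor of red blood cell development, was at 0, 0 and 4.90 CPM (lowest, median and highest) in anti-SMARCA5 and at 0, 40.5 and 64.1 CPM in IgG embryos. The one IgG embryo without it was A04, and the uninjected median was 21.04 CPM. The log2 fold change was -5.34 (SE 0.96, edgeR adjusted p = 0.00486). Ppp1r15a, which encodes GADD34, the stress-induced subunit that directs dephosphorylation of eIF2alpha, had medians of 0.70 and 64.6 CPM, with IgG A04 again at 0 and every other IgG library at no less than 3.84 on the log2(CPM + 1) scale. Dub1a, a deubiquitinase gene of the multi-copy Usp17-like family, had medians of 0.70 and 133 CPM (log2 fold change -5.38, SE 0.96), and its assignment among copies is uncertain. Zfp707, a zinc finger gene, fell with a median of 0 CPM against 36.3 CPM.

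The remaining falls were the clone-named AC127374.1 (a processed pseudogene), AC153539.1 and CAAA01066805.1 and the uncharacterised B020018G12Rik. AC127374.1 was the most variable, from 14.2 to 2087 CPM in IgG and at 36.4 CPM in anti-SMARCA5 B05 but no more than 3 counts in the other 6 anti-SMARCA5 libraries. B020018G12Rik did not overlap between groups, with at most 4.06 CPM in anti-SMARCA5 and at least 11.4 CPM in IgG, but it lies within Pld5 on the same strand. All 10 falls kept their call under every alternative in which they were tested.

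**Figure D3:**
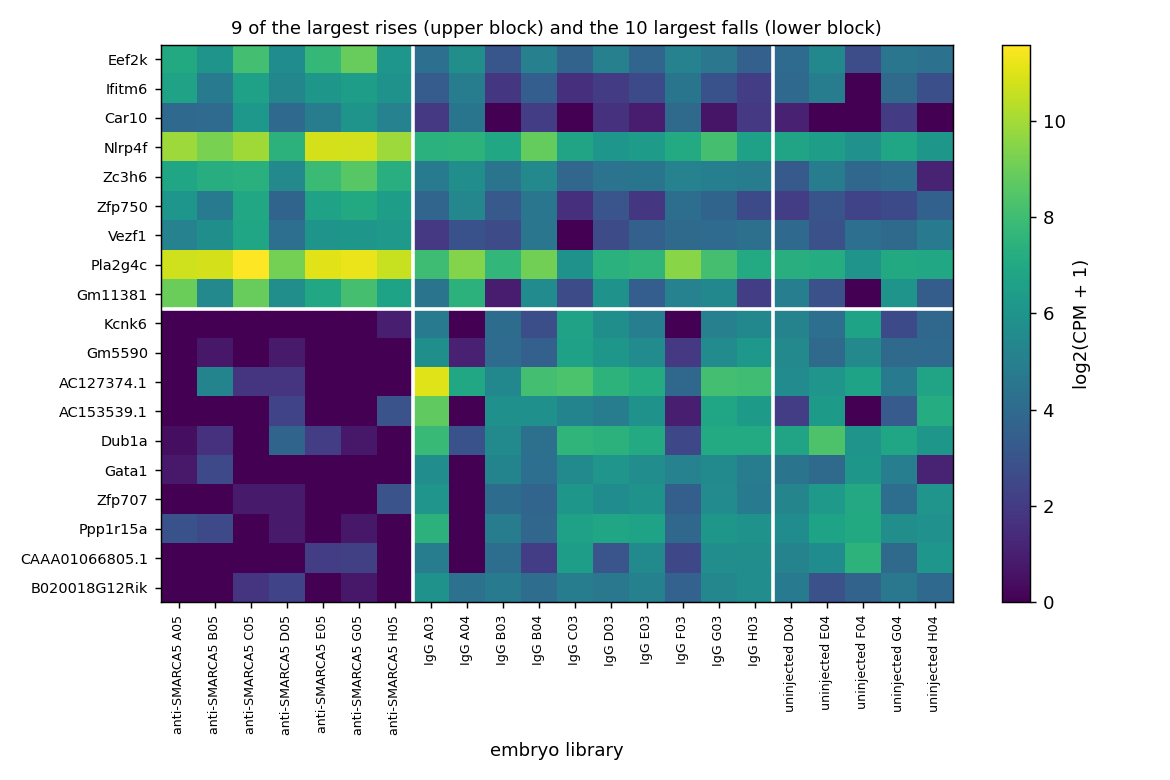
Log2(CPM + 1), as colour, of 9 of the 10 largest rises (upper block) and the 10 largest falls (lower block) in each library, with anti-SMARCA5, IgG and uninjected embryos in the left, middle and right blocks. Column IgG A04 resembles the anti-SMARCA5 block at Kcnk6, Gata1, Zfp707 and Ppp1r15a, where it is at 0.

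Among genes that mark the 2-cell stage, 13 of 28 tested fell. This list holds genes expressed transiently around genome activation, including the Zscan4 and Tdpoz families. Of 46 listed genes 32 were in the table and 28 were tested, of which 13 (46.4%) fell and 1 rose, against 9.54% of all tested genes called lower. Their median log2 fold change was -2.02 (all genes -0.08), and 27 of the 28 had a negative value. The mean log2(CPM + 1) over the tested genes was 1.32 to 4.26 (median 3.48) in anti-SMARCA5 embryos, 2.98 to 6.69 (median 5.27) in IgG embryos and 5.65 at the median of uninjected embryos. All 7 anti-SMARCA5 libraries lay under the IgG median, and IgG A04 was the lowest of its group. Tcstv3, from a cluster of 2-cell genes, went from a median of 53.6 CPM in IgG to 2.32 CPM (log2 fold change -4.22, SE 0.85, edgeR adjusted p = 0.00736). Zfp352 went from 243 to 56.0 CPM and Sp110, a nuclear body gene, from 446 to 46.1 CPM. The other genes that fell were Arg2, Tdpoz4, Pramel7, Pramel6, Gm5662, Gm2016, Tdpoz1, Dppa2, Obox3 and Dppa4, and many belong to multi-copy families whose reads can be shared. The gene that rose was Zfp750, one of the 10 largest rises. Without C05 the count that fell was 7, and without A04 and B04 it was 15.

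Among 31 tested genes for factors of genome activation, 6 (19.4%, all genes 9.54%) fell and 0 rose (18 passed an unadjusted p of 0.05, and DESeq2 called 11 and limma 21 in either direction), with a median of -0.80. Dppa2 and its partner Dppa4, which activate 2-cell genes, had log2 fold changes of -1.35 (SE 0.39) and -2.17 (SE 0.73). Nfyb, a subunit of the CCAAT-binding factor NF-Y, had -1.75 (SE 0.51), with a median of 19.2 CPM against 80.8 CPM. Gabpa, an ETS-family factor, was at 3.52, 47.8 and 102 CPM in anti-SMARCA5 and at 95.6, 207 and 422 CPM in IgG embryos, with 5 of 7 anti-SMARCA5 embryos under every IgG embryo (log2 fold change -2.02, SE 0.54, edgeR adjusted p = 0.0205). Kdm5b, a histone H3K4 demethylase gene, had -1.56 (SE 0.46), and the last was Obox3, a homeobox gene at a median of 0 CPM. The count that fell was 1 to 3 without A05, C05, E05, G05, H05, IgG B03 or IgG C03. Between 2 and 4 genes were called higher without B05, D05, IgG A04, IgG B04 or IgG F03, and without both A04 and B04 there were 10 falls and 7 rises.

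Among transcripts stored by the oocyte, 10 of 49 tested rose. Of 58 listed genes 54 were in the table and 49 were tested: 10 (20.4%) rose and 0 fell, beside 6.97% of all genes called higher, and 45 of the 49 had a positive value, with a median of 1.02. DESeq2 called 11 and limma 32 of the 49 in either direction, and 26 passed an unadjusted p of 0.05 in edgeR. The list's mean log2(CPM + 1) was 6.63 to 8.27 (median 7.61) in anti-SMARCA5, 5.55 to 7.62 (median 6.49) in IgG and 6.21 at the median in uninjected embryos. All 7 anti-SMARCA5 libraries lay above the IgG median, and A04 and B04 were the highest IgG libraries. Gdf9, an oocyte growth factor, was at 117, 436 and 659 CPM against 67.4, 172 and 290 CPM (log2 fold change 1.14, SE 0.34, edgeR adjusted p = 0.0286), a call lost when scaled by total counts and without A05, C05, E05, H05 or IgG B03. Tcl1, an activator of AKT kinase carried over in the egg, had medians of 1332 and 364 CPM, and Npm2, the egg histone chaperone nucleoplasmin, 55.6 and 20.1 CPM. Nobox and Lhx8, homeobox regulators of oocyte genes, had log2 fold changes of 2.32 (SE 0.68) and 2.00 (SE 0.50). The others were Nlrp4f, Nlrp9a, Nlrp9b, Uchl1 and Rfpl4. The count was 5 or 6 without C05, E05 or G05, 18 without IgG A04, 28 without A04 and B04 (with 1 fall), and 6 when scaled by total counts.

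Of genes for making ribosomes, more than the all-gene share of 9.54% fell. Of 81 tested ribosomal protein genes, 27 (33.3%) fell and 0 rose (61 passed an unadjusted p of 0.05, DESeq2 called 53 and limma 68), 80 had a negative value, and the median was -1.67. Their mean log2(CPM + 1) was 2.27 to 5.41 (median 3.62) in anti-SMARCA5 and 3.50 to 6.96 (median 5.86) in IgG embryos, with 6.14 at the uninjected median. The lowest IgG libraries were A04 and B04, and the highest anti-SMARCA5 libraries were D05 and B05. Rpl23, of the large subunit, was at 5.89, 14.4 and 88.2 CPM against 54.7, 156 and 317 CPM (log2 fold change -2.64, SE 0.55, edgeR adjusted p = 0.0087), and Rps13 and Rps29, of the small subunit, had medians of 22.4 and 13.0 CPM against 148 and 87.9 CPM. Many ribosomal protein genes have processed pseudogenes, and the reads of such copies may be shared. The count was 5 to 16 without A05, C05, E05, G05, H05, IgG A03, B03, C03, E03 or H03, 47 without D05 or without IgG A04, and 59 without A04 and B04.

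Of 55 tested genes for transcribing and processing ribosomal RNA, 22 (40%, all genes 9.54%) fell and 0 rose (37 passed an unadjusted p of 0.05, DESeq2 called 29 and limma 45), 54 had a negative value and the median was -1.23. Rrn3, the factor that recruits RNA polymerase I, was at 65.3, 84.4 and 120 CPM against 98.5, 170 and 332 CPM (log2 fold change -1.07, SE 0.28, edgeR adjusted p = 0.0195). Npm1, the most abundant nucleolar chaperone, had medians of 409 and 785 CPM and a log2 fold change of -1.21 (SE 0.35). Wdr75 and Wdr43, of the small subunit processome, had -2.01 (SE 0.49) and -1.35 (SE 0.39). The count was 6 to 14 without A05, C05, E05, G05, H05, IgG A03, B03, C03, G03 or H03, and 33 without A04 and B04.

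Of 35 tested proteasome genes 9 (25.7%, all genes 9.54%) fell and 1 rose (22 passed an unadjusted p of 0.05, DESeq2 called 17 and limma 28), with a median of -1.21 and 31 negative values. Psma6, of the catalytic core, went from a median of 97.1 to 12.5 CPM (log2 fold change -2.72, SE 0.63, edgeR adjusted p = 0.012). The rise was Psme3, a regulatory cap subunit outside the 26S particle, with 0.90 (SE 0.30), a call lost without any of 12 of the 17 libraries. The number that fell was 3 to 5 without A05, C05, E05, G05, H05, IgG A03, B03, C03, E03 or H03, and 14 to 16 without B05, D05 or IgG A04 (16 without A04 and B04). Of the 15 tested genes of the TRIM21 pathway (median -0.46), 6 passed an unadjusted p of 0.05 in edgeR, and DESeq2 called 6 and limma 9. After adjustment edgeR called 1, a rise. That share of 6.67% was under the 16.5% of all genes called and near the 6.97% called higher. The gene was Ube2d3, an E2 ubiquitin-conjugating enzyme, with 1072, 3990 and 16150 CPM against 810, 1351 and 4900 CPM (log2 fold change 1.65, SE 0.49, edgeR adjusted p = 0.0299). That call was lost without C05, G05, IgG A03, B03, C03 or H03. Between 1 and 3 of the list fell without B05, D05, E05 or IgG A04, and without both A04 and B04 there were 3 falls and 2 rises.

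**Figure D4:**
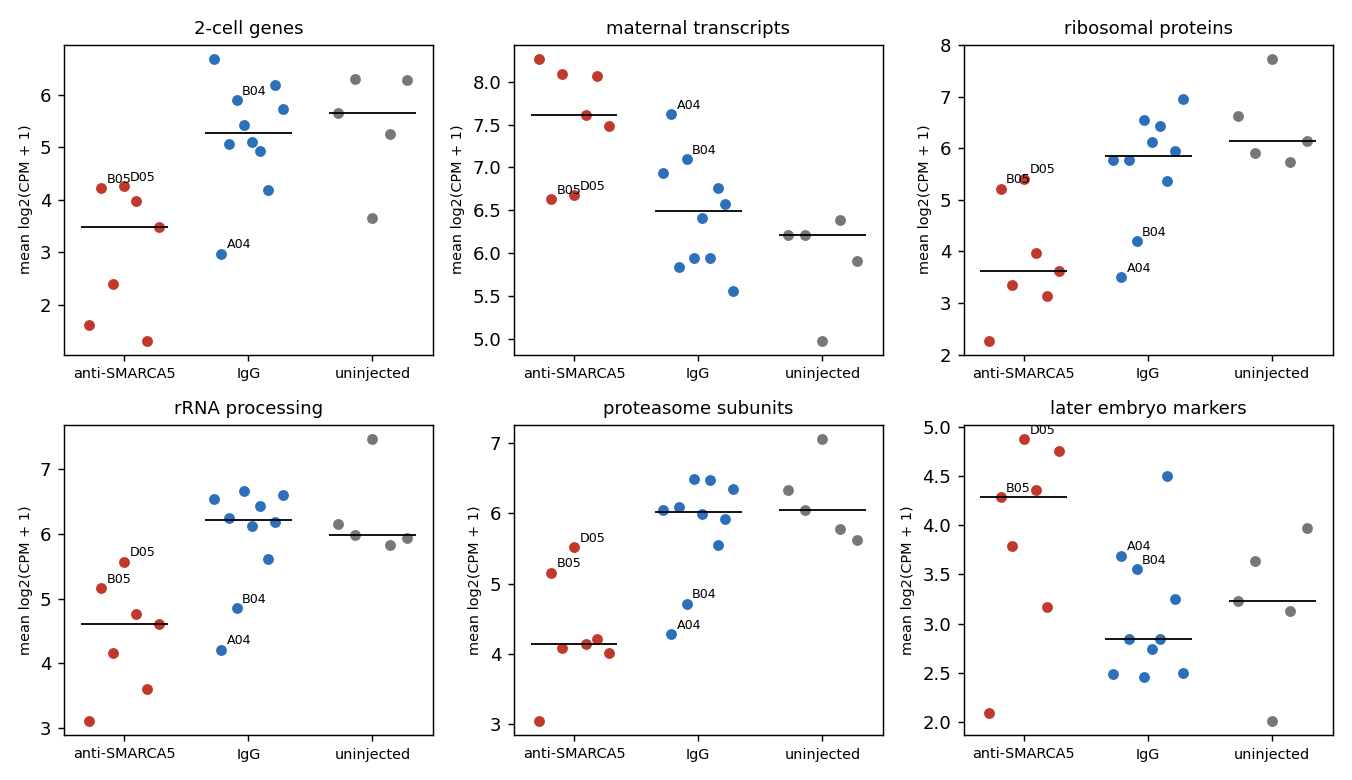
Mean log2(CPM + 1) over the tested genes of 6 lists in each library, with 1 point per embryo and a bar at each group's median, and wells B05, D05, A04 and B04 named. IgG A04 and B04 are the lowest IgG points for ribosomal protein, rRNA processing and proteasome genes and the highest for maternal transcripts.

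Among the 14 tested ISWI subunits, Smarca5 and Baz1a fell and 0 rose, a called share of 14.3% against 16.5% of all genes (6 passed an unadjusted p of 0.05, DESeq2 called 3 and limma 7 in either direction), with a median of 0.23. Baz1a, which encodes the ACF1 partner of SMARCA5, had medians of 101 and 259 CPM (log2 fold change -1.22, SE 0.37, edgeR adjusted p = 0.0308). The number that fell was 0 without A05, C05 or G05 and 1 without H05, IgG A03, B03 or H03, and 1 subunit rose without B05, D05, IgG A04 or IgG B04. Without both A04 and B04 there were 3 falls and 2 rises. Of 41 tested genes for other remodellers 4 rose and 3 fell (9 and 5 without A04 and B04), a called share of 17.1% that is near the 16.5% of all genes. Chd4, the NuRD ATPase, rose by 1.29 (SE 0.29), and the NuRD subunits Mta2 and Hdac1 fell, with -2.36 (SE 0.76) and -1.99 (SE 0.65). Arid1a and Arid1b, alternative subunits of the BAF complex, and Bcl7b, another BAF subunit, rose, and Smarcc1, the BAF core subunit, had -1.47 (SE 0.44). The 3 falls became 0 or 1 without any of 12 of the 17 libraries, the 4 rises became 2 without A05 or C05, and the list's median of 0.21 turned to -0.12 when scaled by total counts.

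The called shares of the heat shock list (17.2%) and the p53 list (18.2%) were near that of all genes (16.5%). Of 29 tested heat shock and chaperone genes (median -0.84; 14 passed an unadjusted p of 0.05, DESeq2 called 10 and limma 20), 4 fell (Hsp90aa1, Hsp90ab1, Hspa5 and Tcp1) and 1 rose, Hsf1, the heat shock transcription factor, with 193 CPM against 69.0 CPM at the median (log2 fold change 1.36, SE 0.32, edgeR adjusted p = 0.0128). Of 22 tested p53 and DNA damage genes (median -0.49), Ddit4, Trib3, Chek2 and Atm fell and 0 rose (4 passed an unadjusted p of 0.05, DESeq2 called 4 and limma 11). Of 12 tested genes of interferon and RNA sensing (median -0.16, positive without IgG E03), edgeR called 0, although 2 passed an unadjusted p of 0.05, DESeq2 called 1 and limma 6, and Ifit1, Ifnb1 and Mx1 were among 8 genes with at most 3 counts in every library. The 13 mitochondrially encoded transcripts had a median of 0.04, which changed sign in 14 alternatives, with 0 called by edgeR, 0 at an unadjusted p of 0.05, 0 by DESeq2 and 1 by limma. The falls of the heat shock list were 0 to 2 without C05, E05, G05, H05, IgG A03, C03, G03 or H03 and 8 or 9 without D05 or IgG A04. Those of the p53 list were 1 or 2 without A05, C05, E05, G05, H05, IgG A03, B03, C03, E03 or H03. Interferon genes gave 1 or 2 rises without B05, D05, IgG A04 or IgG D03. Without both A04 and B04, 11 heat shock genes fell and 2 rose, 4 p53 genes fell and 3 rose, and 2 interferon genes rose.

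Genes that mark later lineages of the embryo gave 2 rises (10.5%, all genes 6.97%) and 0 falls among the 19 tested of 31, and 4 rises without A04 and B04 (5 passed an unadjusted p of 0.05, DESeq2 called 2 and limma 9), with a median of 0.9997. Gata3, a trophectoderm transcription factor, was at 23.1, 51.5 and 111 CPM in anti-SMARCA5 and at 0.65, 5.43 and 57.9 CPM in IgG embryos, with an uninjected median of 1.11 CPM (log2 fold change 2.19, SE 0.66, edgeR adjusted p = 0.0301). Of the 7 anti-SMARCA5 embryos 2 exceeded every IgG embryo. Pou5f1, the pluripotency factor OCT4 that is also stored in the egg, had medians of 273 and 65.7 CPM (log2 fold change 1.66, SE 0.39, adjusted p = 0.0128). Cdx2 and Nanog did not pass the filter, with medians under 1 CPM in both groups. Without A05, C05, E05, H05, IgG A03, B03, G03 or H03 the call of Gata3 was lost.

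The 17 genes that an earlier comparison of all antibody replicates had singled out include these libraries, so they are no independent evidence. The 11 tested had a median of -2.33 that changed sign in 6 alternatives (1.22 without A04 and B04). Of these 11, Gata3 rose (9.09%, all genes 6.97%), and Gata1, Mtrr and Tmx1 fell (27.3%, all genes 9.54%). The 3 falls became 1 without IgG A03, C03, D03, E03, G03 or H03 and 5 or 6 without D05, H05 or IgG A04. Dll1, a Notch ligand, had medians of 51.0 and 5.69 CPM, Cyp26a1, a retinoic acid hydroxylase, 20.3 and 2.92 CPM, Onecut2 11.2 and 4.44 CPM and Hoxa9 19.7 and 0 CPM, without passing the test. Gm16243 and Gm14929, with medians of 0 CPM in anti-SMARCA5 and 8.10 and 16.1 CPM in IgG embryos, and Smyd5, at 1.92 and 14.7 CPM, also did not pass it. The 6 genes that did not pass the filter were Tacr3, Stmn3, Mpdu1, Sepp1, Adra2b and Irs1. Stmn3 and Mpdu1 were listed at 0 in every anti-SMARCA5 library and had IgG medians of 22.4 and 10.5 CPM. Of 10 genes named in the maternal deletion, 5 were tested. Of these 5, Gdf9 rose (20%, all genes 6.97%) and Dohh, a hypusine-forming hydroxylase gene, fell (20%, all genes 9.54%). Dohh went from a median of 17.3 to 0 CPM (log2 fold change -5.15, SE 1.08, edgeR adjusted p = 0.00861). The list's median of 0.72 changed sign in 11 alternatives. Falls numbered 2 or 3 with any of the 7 anti-SMARCA5 libraries left out, and the rise was lost without A05, C05, E05, H05 or IgG B03.

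Gene families picked by name after their values were seen are described without a test; of all genes 6.97% were called higher and 9.54% lower. All 12 tested Nlrp genes had a positive value (median 1.31), and 5 rose. All but 1 of the 13 eIF3 translation factor subunits had a negative value (median -1.88), and 4 fell. Of 27 subunits of RNA polymerases I, II and III, 24 had a negative value (median -1.19) and 8 fell. The 20 tested subunits of mitochondrial import had a median of -1.63, with 6 falls such as Tomm22 (median of 13.1 CPM against 125 CPM) and 1 rise, Timm8b. Of 29 Mediator subunits 7 fell, including Med8 (-2.97, SE 0.71), and 4 rose, including Med27 (1.57, SE 0.37). The TATA-binding protein gene Tbp fell by 1.77 (SE 0.34) on the log2 scale. Cnot4, Cnot3 and Cnot6l of the CCR4-NOT deadenylase rose and Cnot10 fell among 9 subunits. RAB GTPases, which direct membrane traffic, gave 8 rises and 3 falls among 38. Rab14, at medians of 1490 and 404 CPM, was the rise of smallest p-value.

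Promoter sequences were read for 3 of the lists. RefSeq promoters (GRCm38.p6) ran from 250 bases before to 50 after the start of each gene. They matched 48 of 55 ribosomal RNA processing genes, 29 of 35 proteasome genes and 41 of 49 maternal transcripts. They matched 7621 of the 9547 tested genes (79.83%), 525 of the 665 called higher and 712 of the 911 called lower, each under 80%, so a test against tested or called genes is void and the values of those matched are given as a description. The sequence CCGGAAG, the core bound by ETS factors such as GABPA, was searched on both strands. It occurred in 37.5% of the ribosomal RNA processing promoters, 41.4% of the proteasome promoters and 2.44% of the maternal promoters. Among the matched tested genes it occurred in 19.96%, in 26.7% of those called lower and in 16% of those called higher. Over all 27025 promoters of the table, which include genes not expressed here, the share was 9.12%. The CCAAT box of NF-Y occurred in 39.6%, 41.4% and 41.5%, against 40.8% of tested genes and 37.9% of all promoters. Median GC content was 57.8%, 59.0% and 50%, below the 61.3% of tested genes, and 52.7% over all promoters. The median number of CpG dinucleotides was 19, 20 and 4, below the 22 of tested genes, and 7 over all promoters. A match describes the letters and does not show a bound site. The 3 promoters shown as examples belong to 2 ribosomal RNA processing genes and 1 proteasome gene. These had the smallest p-values among those of each list that fell and hold a match. Capitals mark CCGGAAG or its reverse complement, on the strand of the gene.
Rrn3: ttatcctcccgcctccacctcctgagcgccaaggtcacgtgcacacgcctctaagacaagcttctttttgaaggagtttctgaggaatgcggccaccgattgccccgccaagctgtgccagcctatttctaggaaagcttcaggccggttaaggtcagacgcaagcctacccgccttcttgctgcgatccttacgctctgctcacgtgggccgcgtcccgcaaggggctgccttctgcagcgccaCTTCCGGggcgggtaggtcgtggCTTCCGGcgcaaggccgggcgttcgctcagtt
Taf1b: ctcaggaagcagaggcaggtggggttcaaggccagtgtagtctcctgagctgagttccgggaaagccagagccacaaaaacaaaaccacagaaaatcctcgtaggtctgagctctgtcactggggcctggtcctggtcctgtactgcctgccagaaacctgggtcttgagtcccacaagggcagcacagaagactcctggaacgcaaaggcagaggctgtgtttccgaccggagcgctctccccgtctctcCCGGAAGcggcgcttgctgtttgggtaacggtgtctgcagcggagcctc
Psmc2: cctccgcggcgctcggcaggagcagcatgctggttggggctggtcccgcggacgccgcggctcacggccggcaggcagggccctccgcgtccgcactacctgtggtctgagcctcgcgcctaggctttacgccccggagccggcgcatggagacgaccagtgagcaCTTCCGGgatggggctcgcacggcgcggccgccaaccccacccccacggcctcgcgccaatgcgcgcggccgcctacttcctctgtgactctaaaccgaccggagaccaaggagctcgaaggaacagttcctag
Rrn3 lies at chr16:13780449-13780748 (plus strand), with 2 matches, the first beginning 5 bases before the start. Taf1b, a subunit of the polymerase I selectivity factor (chr12:24498331-24498630, plus strand), has 1 match beginning just after the start, and fell by 3.36 (SE 0.89) on the log2 scale. Psmc2, an ATPase of the proteasome base (chr5:21785025-21785324, plus strand), has 1 match 84 bases before the start, and was at a median of 9.78 CPM against 37.2 CPM.

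In replicate 1, 90 of 10507 genes (0.857%) were called. All 10 IgG libraries of that replicate had 0 counts of Trim21, while its 17 anti-SMARCA5 libraries had up to 11711. The replicates share no library. Of the 1576 genes called in replicate 3, 1559 were tested in replicate 1 and 1423 (91.3%) had the same sign there, beside 73.9% of the 9157 genes tested in both. Their median absolute log2 fold change was 1.77 in replicate 3, where they were chosen, and 0.64 in replicate 1. The 22 genes called in both replicates all had the same sign. The difference between the 2 effects was tested directly in 1 model of all 4 groups, and 40 of 12659 genes (0.316%) passed, 5 with a positive and 35 with a negative difference. At an unadjusted p under 0.05 there were 1835, and DESeq2 called 287. The count was 13 without A05, 13 without G05, 17 without C05 and 26 without IgG C03. It was 205 without B05, 445 without D05, 135 without IgG A04, 69 without IgG B04 and 72 without IgG F03.

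Of the 35 genes with a negative difference, 24 were among the genes that fell in replicate 3, and all 5 with a positive one were among those that rose. Only 31 of the 40 genes were tested in the replicate 3 fit. The difference contains the replicate 3 effect from the same libraries, so this agreement is partly built in. Gm13068, an antisense transcript that overlaps Slc25a33 on the other strand, had log2 fold changes of -4.23 in replicate 3 and 0.27 in replicate 1 (difference -4.49, SE 0.71, edgeR adjusted p = 0.000381). Its levels did not overlap in replicate 3, with at most 7.69 CPM in anti-SMARCA5 and at least 18.0 CPM in IgG embryos. Gm5590 had -7.24 and -0.52, and Dub1a -5.38 and 0.13. Trap1a, an X-linked antigen gene, had -1.91, which did not pass the test (adjusted p = 0.0625), and 2.66 in replicate 1 (adjusted p = 0.0155), a difference of -4.54 (SE 0.84). The 5 positive differences were Med27 (1.57 and -0.69), Nlrp4f (2.64 and -0.02), Ccrn4l, the deadenylase-related gene nocturnin (1.41 and -0.37), Hivep1, a zinc finger factor (2.19 and 0.22), and Eef2k (3.00 and 0.30). Ccrn4l did not overlap in replicate 3, with 197 to 530 CPM against 69.4 to 179 CPM. Of 22 alternatives the call was lost in 3 for Ccrn4l (total counts, without A05 and without C05), in 10 for Hivep1 and in 14 for Eef2k.

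The maternal deletion of Smarca5 was compared with wild type in the same way, on libraries that are not shared. Both collections of these embryos were pooled with no term for collection, so differences between collections were not taken out. The comparison called 26.6% of 8518 genes at least 2-fold higher and 24.0% at least 2-fold lower. Of the 2069 higher genes tested in replicate 3, 403 rose and 1 fell, with a median log2 fold change of 0.79 (replicate 1 0.61). Of the 1992 lower genes, 0 rose and 670 fell, with a median of -1.47 (replicate 1 -0.59). Of all genes tested in replicate 3, 6.97% were called higher and 9.54% lower, with a median of -0.08 (replicate 1 0.08). Genes called in both comparisons numbered 1157, with 1154 in the same and 3 in the opposite direction. They were 78.1% of the replicate 3 calls that were tested there and 25.3% of the deletion calls tested in replicate 3. As a background, of the 8073 genes tested in both, 4573 were deletion calls (no fold threshold) and 1482 were replicate 3 calls. Over 8073 genes the fold changes had a Pearson r of 0.76 and a Spearman rho of 0.77, and across 9157 genes those of replicates 3 and 1 had 0.56 and 0.60. Genes are not independent replicates. The list medians under deletion were -1.81 for 2-cell genes, 1.71 for maternal transcripts, -1.99 for ribosomal proteins, -2.09 for ribosomal RNA processing genes and -1.63 for the proteasome. In replicate 1 they were -0.31, 0.29, -0.72, -0.62 and -0.41. Gdf9 differed in size, with 5.81 under deletion and 1.14 here, and Eef2k was not called there (0.38, adjusted p = 0.558).

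**Figure D5:**
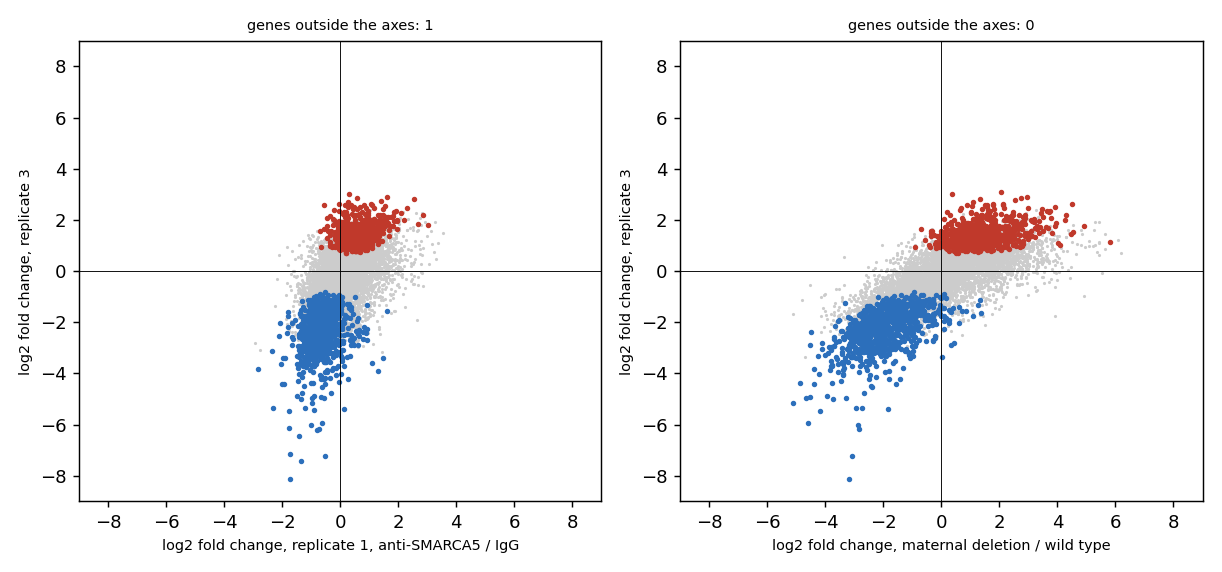
Log2 fold change in replicate 3 (vertical) against that in replicate 1 (left) and under maternal deletion (right), with 1 point per gene tested in both, red and blue where called higher and lower in replicate 3. Coloured points lie mostly in the lower left and upper right quadrants, and in replicate 1 they span a narrower range than in replicate 3.

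Of the 6 library measures, only that of Smarca5 passed the adjusted threshold. Genes detected after thinning each library to 100000 counts were 8180 ± 1153 (SD, n = 7) in anti-SMARCA5 and 8981 ± 798 (SD, n = 10) in IgG embryos (exact two-sided permutation p = 0.112, adjusted 0.224). The mitochondrial share was 22.6% ± 8.07 and 20.9% ± 7.35 (exact permutation p = 0.661). The 50 most abundant genes took 34.2% ± 5.79 and 29.2% ± 8.18 of counts (exact permutation p = 0.182), and all 7 anti-SMARCA5 libraries lay above the IgG median of 26.1%. The part of these measures in the gene results was not tested.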

How the data were processed

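The authors deposited raw counts of reads per gene, 1 column per embryo, in a table of whole numbers. Reads were trimmed with Trim Galore 0.6.5 and cutadapt 2.3 and aligned with HISAT2 2.1.0 to GRCm38, per the submitters' processing notes. Strand, multiply mapped reads, duplicates and the annotation release are not given in the sources used here. Low odd counts outnumbered even ones (23359 cells of 1, 5688 of 2), so counting error can be understated. Repeated identifiers were added up, giving 25900 genes.

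From these counts, edgeR 4.0.16 (R 4.3.3) was run with TMM, filterByExpr and the robust quasi-likelihood F test, and Benjamini-Hochberg adjusted p under 0.05 made a call. The main model held the 17 libraries of replicate 3, the difference between replicates used 44 libraries, and SE is the absolute log2 fold change divided by the square root of F. Alternatives were DESeq2 1.42.0, limma 3.58.1 (voom with sample weights), other scalings, filters and depths, and libraries left out. The fits were tested on simulated data. Library measures used exact two-sided permutation tests over 19448 assignments. CPM was TMM-scaled over 22 libraries with a pseudocount of 1 for logs.

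Named were Trim21, Smarca5 and Smarca1, the 10 largest rises and falls among calls of average log2 CPM at least 4, 5 differences per direction, and called or abundant members of 18 lists. 1 gene that met the rule is not reported here. Members and lists were chosen with earlier results of these data known. Families by name and the alternative without A04 and B04 were chosen after seeing values.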

Additional observations from a re-analysis of the deposited data

Results flagged for a closer look

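Within the groups of replicate 3, 13 values of 88 groups checked lay apart from the rest of their group by Dixon's criterion. For normally distributed values chance gives about 1 in 20. Groups that are mostly at 0 do not meet this, and the flag on Kcnk6 in H05 rests on 1 count. The number of flags is therefore not read as an excess. Anti-SMARCA5 A05 held 4010000 counts, against 951500 to 1905000 in the other 6. In anti-SMARCA5 B05, Smarca5 stood at 518 plain CPM (others 37.4 to 174.8), and its mean over the cumulus and granulosa markers was 6.581 on the log2(CPM + 1) scale (others 2.529 to 4.07). On the same scale AC127374.1 was 5.226 there (others 0 to 1.78) and Gata1 2.561 (others 0 to 0.7957). Pla2g4c was 9.142 in D05 (others 10.62 to 11.58), and in H05 Kcnk6 was 0.9714 (others 0) and Zfp707 2.95 (others 0 to 0.857). In IgG A04, Gata1 (others 4.21 to 6.025), Zfp707 (others 3.513 to 6.133) and Ppp1r15a (others 3.842 to 7.459) were each 0, and the genome activation factors had a mean of 5.258 (others 5.826 to 6.356). In IgG B04 the tested sperm marker was 1.808 (others 4.457 to 6.507).

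The antibody effect differed between replicates 3 and 1 by the test of the difference for 15 named genes. On the log2 scale the difference was 2.2745 for Med27, 2.6407 for Nlrp4f, 1.7946 for Ccrn4l, 1.9677 for Hivep1 and 2.7145 for Eef2k. It was -4.4912 for Gm13068, -6.7076 for Gm5590, -5.503 for Dub1a, -4.5411 for Trap1a and -6.0956 for Kcnk6. It was -4.9612 for AC127374.1, -5.3136 for AC153539.1, -4.3292 for Ppp1r15a and -4.2538 for B020018G12Rik. For Trim21 the fitted difference was -13.363, which depends on the prior count because the IgG libraries of replicate 1 are all at 0, and is no bound.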

How the results depend on the processing

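No paired analysis was possible because all 17 libraries carry replicate number 3 and differ only by well. The main count of 1576 calls was 1182 to 2001 in 8 other settings (DESeq2 size factors, total counts, no filter, a filter of 10 counts in 7 libraries, all libraries with any count, uninjected libraries in the model, robust estimation off, and the IgG libraries without Trim21 left out) and stayed at 1576 with at least 500000 counts. It was 2903 with DESeq2, 4611 with limma voom and sample weights, 3279 without IgG A04 and B04, and 628 to 2542 when each library was left out in turn. All of the 1576 genes that were tested kept their direction in every one of these settings. The difference between replicates, 40 genes, was 287 with DESeq2, 37 to 43 in the other settings and 13 to 445 with each library left out.

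Smarca5 had -2.42 to -1.58 with each library left out, and its call was lost in 3 of them. Trim21 ranged from 1.30 to 2.12 with each library left out and passed the threshold with limma voom (5.53, adjusted p = 0.00946), where libraries are weighted. Of the library measures, the Trim21 difference of 926 CPM was 570 to 1133 CPM with each library left out, and passed the adjusted threshold without B05. The cause of these changes was not tested, apart from the smaller number of libraries in each that leaves one out. The 20 named genes gave 559 values over the alternatives, as some were not tested in every one. Of these values 553 kept the call and 6 lost it. Depth limits genes near 3 counts per library, where a fall cannot be sized.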
